A study of Homo sapiens with 8 samples.

Results

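The genes of oxidative phosphorylation were examined in 8 samples of PC3 prostate cancer cells, each measured on 1 Affymetrix expression array. Genes were taken by symbol, as the genes with a probe set of their own whose symbols begin with NDUFA, NDUFB, NDUFC, NDUFS or NDUFV and a number, with UQCR, with COX and a digit of subunits IV to VIII, with COXFA4, or with ATP5 and a letter. This gave 79 of the 19775 genes of the array, of which 76 encode proteins and 3 are non-coding RNAs named after a neighbouring subunit gene. The 76 coding genes comprised 32 of complex I, 6 of complex III, 20 of complex IV, 17 of complex V and the ATP synthase inhibitor ATP5IF1. A further 2 genes of this naming, both pseudogenes, were left out. The subunits NDUFC2, NDUFS5, NDUFS8, UQCRH and UQCRHL lie on probe sets that carry several gene symbols and were not analysed here.

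Oxidative phosphorylation takes place in the inner mitochondrial membrane. Complex I takes electrons from NADH, complex III passes them from ubiquinol to cytochrome c, and complex IV, cytochrome c oxidase, hands them to oxygen. The protons these complexes pump across the membrane drive complex V, the ATP synthase. Most of the subunits are encoded in the nucleus, as are all genes taken by symbol here, and a few core subunits are encoded by mitochondrial DNA. Several complex IV subunits exist as paralogues that are used in particular tissues or under stress, such as lung, muscle or testis forms.

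The EMT lines, PC3-EMT1, PC3-EMT12 and PC3-EMT14, were isolated as mesenchymal populations from PC3-Epi cells co-cultured with IL4-treated human macrophages, with 1 array for each, and their values are given in the order of their numbers. PC3-Epi is an epithelial population of PC3 that carries a luciferase vector and was picked for brightness and shape, and it was measured on 1 array with no replicate. Lentiviral sh4, an shRNA against ZEB1, and a scrambled shRNA (Scr) had each been put into PC3-EMT1 and into PC3-EMT14, which gives 2 arrays of sh4 and 2 of Scr, with PC3-EMT1 given before PC3-EMT14. All 8 samples were grown in RPMI medium with serum and descend from the luciferase-bearing PC3-Epi cells, and the lines were isolated as populations with changed shape. The comparison of the EMT lines with PC3-Epi asks what differs after the epithelial-to-mesenchymal transition (EMT), and that of sh4 with Scr what differs when ZEB1 is reduced in mesenchymal cells. The arrays of a group are separate lines and not described as separate cultures, so a p-value here speaks only of how far these arrays scatter, which may be technical, and the number of arrays limits the precision.

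Values are log2 RMA values, that is, logarithms of array brightness after background correction and normalisation, so that a difference of 1 is a 2-fold difference. The scaling differed between the 4 untransduced and the 4 transduced arrays, with medians of 4.33 to 4.35 and of 6.19 to 6.23 over their probe sets, and values were compared only within a set. The brightest bacterial control probe set stood at 4.56 on the untransduced and at 6.00 on the transduced arrays. The labels were checked first. ZEB1, the repressor of epithelial genes that sh4 targets, stood at 9.12 and 9.01 with sh4 and at 9.87 and 10.08 with Scr, and at 6.81, 7.12 and 6.50 in the EMT lines, against 3.08 in PC3-Epi. CDH1, the adhesion protein E-cadherin, stood at 3.07, 3.61 and 4.00 in the EMT lines, against 11.31 in PC3-Epi (limma, adjusted p = 0.000241), and at 9.63 and 9.75 with sh4, against 5.61 and 5.89 with Scr (adjusted p = 0.000526). ESRP1, an epithelial splicing regulator, stood at 2.94, 2.89 and 3.24 in the EMT lines, against 11.15 in PC3-Epi, and at 8.02 and 9.16 with sh4, against 4.51 and 5.05 with Scr. For both genes the EMT and Scr values lay under the brightest bacterial control of their set, so no size is given for these differences. EPCAM, an epithelial adhesion molecule, differed by -3.35 in the EMT lines and 1.97 with sh4, and VIM, the filament protein vimentin, by 1.91 and -0.33, of which the last did not pass. The epithelial keratins KRT8, KRT18 and KRT19 did not pass in either comparison. They remained bright, at 11.12 to 12.59 in the EMT lines and 11.96 to 12.87 in PC3-Epi. HOXB13, a transcription factor of the prostate, stood at 10.30, 10.67 and 10.23 in the EMT lines, against 8.07 in PC3-Epi (adjusted p = 0.00194), and fell by 1.02 with sh4 (adjusted p = 0.0218). Of the other prostate genes, TMPRSS2, a surface protease, stood at 5.72, 5.82 and 6.03, against 6.95 in PC3-Epi (adjusted p = 0.00977), and KLK3, which encodes PSA, at 6.82, 6.45 and 6.65, against 6.51 (adjusted p = 0.606). Of 19 macrophage markers, 18 lay under the brightest bacterial control on all untransduced arrays, CD14 and PTPRC among them, and their summed log2 values were 67.5 to 68.5 in the EMT lines and 66.5 in PC3-Epi. On the transduced arrays 14 of the 19 lay under it, with sums of 104.88 to 104.89 with sh4 and 103.4 to 105.0 with Scr. Fewer cells of a kind and less RNA per cell cannot be told apart in such bulk samples.

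Most of the genes were bright in every sample. Of the 76 coding genes, 53 had a mean of log2 11 or above on the untransduced arrays, and the median over the 76 was 11.94, 11.89 and 11.91 in the EMT lines and 11.71 in PC3-Epi. The brightest probe sets over the 8 arrays were those of COX6A1, COX7C and COX6C, 3 small nuclear-encoded subunits of complex IV, with means of 13.59, 13.53 and 13.43. The dimmest were those of COX7B2 and COX8C, forms known from testis, and COX6A2, the heart and muscle form, with means of 3.97, 4.31 and 4.61. These are levels of different probe sets and give no ranking of transcripts.

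The dim genes were almost all tissue forms of complex IV. In the EMT lines and PC3-Epi, 6 coding genes stayed under log2 5 on every array and were not tested there: COX6A2, COX6B2, COX7A1, COX7B2, COX8C and ATP5MF, a small subunit of the ATP synthase that is represented here only by a dim probe set because other probe sets carry several symbols. COX4I2, the lung form of subunit IV, stood at 5.80, 5.76 and 5.87 in the EMT lines, against 5.44 in PC3-Epi. Their broadly used counterparts were bright, with COX4I1 at 12.63 to 12.75 in the EMT lines and 12.59 in PC3-Epi, COX6A1 at 13.42 in all 3 EMT lines and 13.20 in PC3-Epi, and COX8A at 11.85 to 12.07 in the EMT lines and 11.95 in PC3-Epi. None of these 3 passed the test. The plot of levels shows the separation into a bright and a dim group, with COXFA4L3 between them in the mean of the EMT lines. In PC3-EMT12 alone COXFA4L3 stood at 5.74, beside COX4I2 at 5.76.

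**Figure D1:**
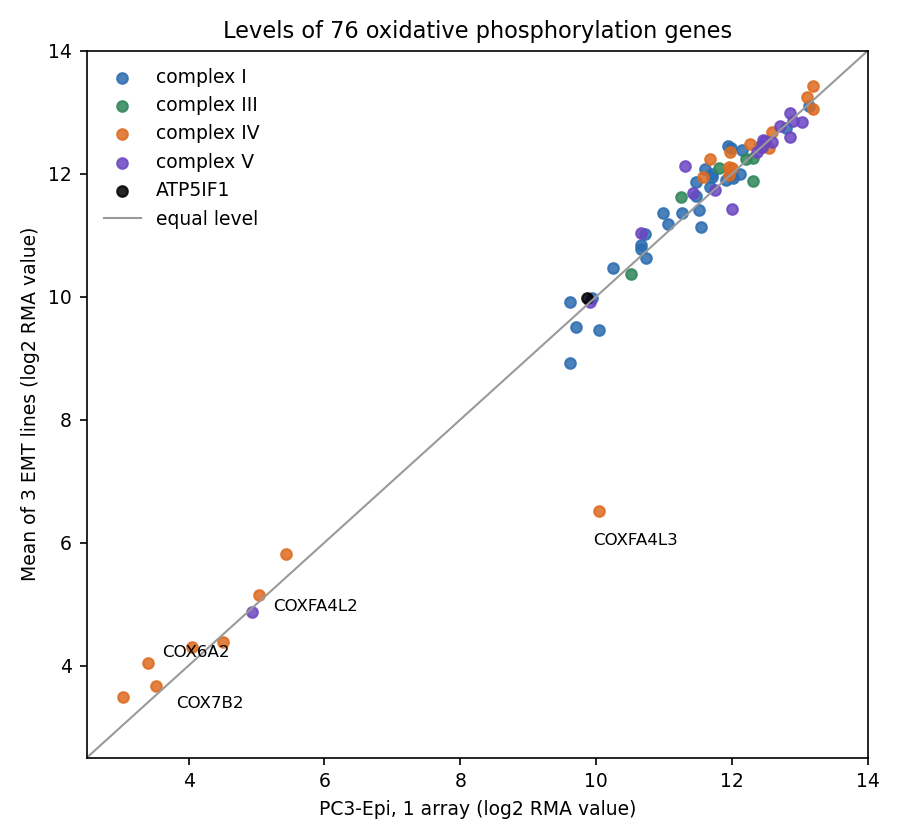
Log2 RMA values of the 76 coding genes, with PC3-Epi (1 array) on the x axis and the mean of the 3 EMT lines on the y axis; each point is a gene, coloured by its complex, and the line marks equal levels. COXFA4L3, at 10.05 in PC3-Epi and a mean of 6.52 in the EMT lines, lies furthest from the line.

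COXFA4L3 showed the largest difference. It is a paralogue of COXFA4 (also called NDUFA4), a subunit of complex IV, and is known as a form that takes the place of COXFA4 in the complex in inflamed or immune cells. COXFA4L3 stood at 7.30 in PC3-EMT1, 5.74 in PC3-EMT12 and 6.52 in PC3-EMT14, against 10.05 in PC3-Epi. All 3 EMT lines lay below PC3-Epi, by 6.72-fold, 19.9-fold and 11.6-fold, and all stayed above the brightest bacterial control. Of the 19 macrophage markers, 18 lay under that control on all untransduced arrays, and LAPTM5 lay above it. On the transduced arrays 14 lay under the control of that set, and LAPTM5, CSF1R, MARCO and AIF1 lay above it on all 4. The mean was 6.52 ± 0.78 in the EMT lines (SD, n = 3), and the fall of 3.53 ± 0.54 on the log2 scale passed the test (SE from limma, adjusted p = 0.00928). The gene has 1 probe set, lies at chr15:45430610-45433340 (GRCh38.p14, plus strand) and holds the hairpin of the microRNA MIR147B, whose mature product was not measured on these arrays. That product is shown with its seed, bases 2 to 8, in capitals, as RefSeq gives it at chr15:45433098-45433118.
hsa-miR-147b-3p: gUGUGCGGaaaugcuucugcu

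COXFA4L3 was higher with the ZEB1 shRNA. It stood at 8.56 in PC3-EMT1 and 8.93 in PC3-EMT14 with sh4, against 6.44 and 6.34 with Scr. The gene was 4.37-fold higher with sh4 in PC3-EMT1 and 6.02-fold higher in PC3-EMT14. Of 16661 genes tested, 10635 had the same sign in both lines. The Scr values lay less than 0.5 above the brightest bacterial control of that set, 6.00. The mean rise was 2.36 ± 0.24 (SE from limma, 6 arrays with the line as a block, adjusted p = 0.0106). It rests on the spread of the 6 arrays of both lines: with the 4 transduced arrays alone the difference is the same with an SE of 0.16 and an adjusted p = 0.144, and limma then called 0 of 16661 genes, with 3 coding members at an unadjusted p under 0.05. Without the line as a block the adjusted p was 0.0653, and with 32 added on the linear scale the rise was 2.00 with an adjusted p = 0.103. COXFA4L3 was named in the choice of genes, with its response to sh4 already known, so its difference is given as a value and not as support for a pattern of the others.

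Neither of the other members of the family passed the test. COXFA4 stood at 12.26, 12.44 and 12.36 in the EMT lines, against 11.97 in PC3-Epi, a difference of 0.38 ± 0.15 that did not pass (adjusted p = 0.0987) but did so with a trend in the prior variance (adjusted p = 0.0198). With sh4 it stood at 13.06 and 12.9996 against 13.07 and 13.17 with Scr (-0.09 ± 0.12, adjusted p = 0.724). COXFA4L2 (NDUFA4L2), the paralogue known for its induction by hypoxia, was dim, at 5.31, 5.04 and 5.08 in the EMT lines and 5.04 in PC3-Epi (0.10, adjusted p = 0.656), and at 7.02 and 7.19 with sh4 against 7.29 and 7.30 with Scr (-0.19, adjusted p = 0.491). COXFA4 remained the brightest probe set of the family on all 8 arrays.

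**Figure D2:**
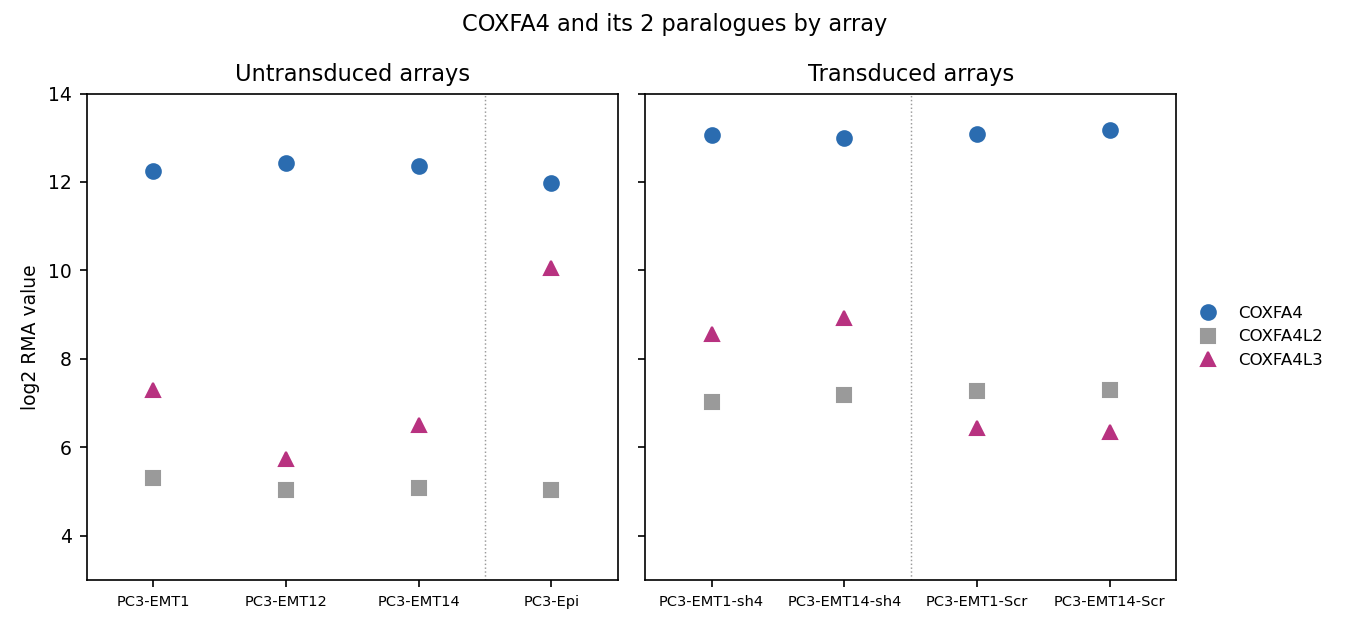
Log2 RMA values of COXFA4, COXFA4L2 and COXFA4L3 on the y axis in each array on the x axis, with the untransduced arrays in the left panel and the transduced arrays in the right panel, which were scaled apart; each symbol is 1 array and the dotted line parts the groups. COXFA4L3 lies at 5.74 to 7.30 in the EMT lines and at 10.05 in PC3-Epi, and at 8.56 and 8.93 with sh4 and at 6.44 and 6.34 with Scr, while COXFA4 stays between 11.97 and 12.44 in the left panel and between 12.9996 and 13.17 in the right.

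Few of the other genes passed the test between the EMT lines and PC3-Epi. Of 70 coding genes bright enough to be tested, 3 rose, 2 fell and 65 did not pass at an adjusted p under 0.05. An unadjusted p under 0.05 was found for 14 of the 70, against 5325 of 11921 over all genes tested. Over all 11921 genes tested, 29.3% passed, 13.9% higher and 15.4% lower, so the 7.14% of the coding members lay below the share of all genes. Of the 933 genes at a mean of log2 11 or above, 13.3% passed, and of the 53 members at that level, 4 passed. The count depends on the prior: with a trend in the prior variance, 15 of 70 members passed, against 32.5% of all genes tested. Without PC3-EMT12, 9 of 70 members passed, against 37.2% of all genes tested. Without PC3-EMT1, 2 members passed, against 25.6% of all genes, and without PC3-EMT14, 2 passed, against 15.5%. The median difference was 0.09 over the members and 0.07 over all genes tested, and 63 of the 70 members differed by less than 0.5. A 2-fold difference with 1 sign in each EMT line was found for COXFA4L3 alone, whereas 2.95% of all genes showed it upwards and 4.9% downwards. In single lines, NDUFA5 also reached it, with a difference of -1.01 in PC3-EMT1.

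The 3 genes that rose belong to 3 different complexes. ATP5MC2, 1 of 3 genes that encode the same mature c subunit of the rotor ring of the ATP synthase, stood at 12.25, 12.04 and 12.09 in the EMT lines, against 11.31 in PC3-Epi. Its EMT lines lay close together, 12.12 ± 0.11 (SD, n = 3), and above PC3-Epi by 0.81 ± 0.15 (adjusted p = 0.016). Averaged with a dim second probe set, which differed by 0.13, it stood at 0.47 and did not pass (adjusted p = 0.0613). The other c subunit genes ATP5MC1 and ATP5MC3 stood at 0.38 (adjusted p = 0.0827) and -0.07 (adjusted p = 0.719).

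COX5B, a zinc-binding subunit of complex IV on the matrix side, stood at 12.28, 12.29 and 12.13 in the EMT lines, against 11.67 in PC3-Epi (0.56 ± 0.15, adjusted p = 0.0386). Its 3 other probe sets differed by 0.35, 0.62 and 0.59, all upwards. Those at 0.35 and 0.62 are of a kind that can also match related sequences, and that at 0.59 was dim, at 5.15 in PC3-Epi. NDUFA3, an accessory subunit in the membrane arm of complex I, stood at 12.52, 12.44 and 12.39, against 11.94 in PC3-Epi (0.51 ± 0.14, adjusted p = 0.0441). The 3 EMT lines lay above the 1 PC3-Epi array for both genes. A single sign in all 3 lines was found for 9865 of 11921 genes tested and for 54 of the 70 members tested.

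ATP5F1C, the gamma subunit that forms the central stalk of the ATP synthase, was the second gene that fell. It stood at 11.34, 11.49 and 11.47 in the EMT lines, against 12.003 in PC3-Epi (-0.57 ± 0.15, adjusted p = 0.035), and its 3 other probe sets differed by -0.61, -0.61 and -1.13, the last of them at or under the brightest bacterial control. Its 3 bright probe sets are of a kind that can also match related sequences. COX5B, NDUFA3 and ATP5F1C were not called without PC3-EMT1 (adjusted p = 0.0678, 0.0808 and 0.0621) or without PC3-EMT14 (adjusted p = 0.0999, 0.137 and 0.117), and COX5B and NDUFA3 were not called after cyclic loess normalisation of the 8 arrays, where 1 gene rose and 2 fell. With no filter NDUFA3 was not called either (adjusted p = 0.0549).

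**Figure D3:**
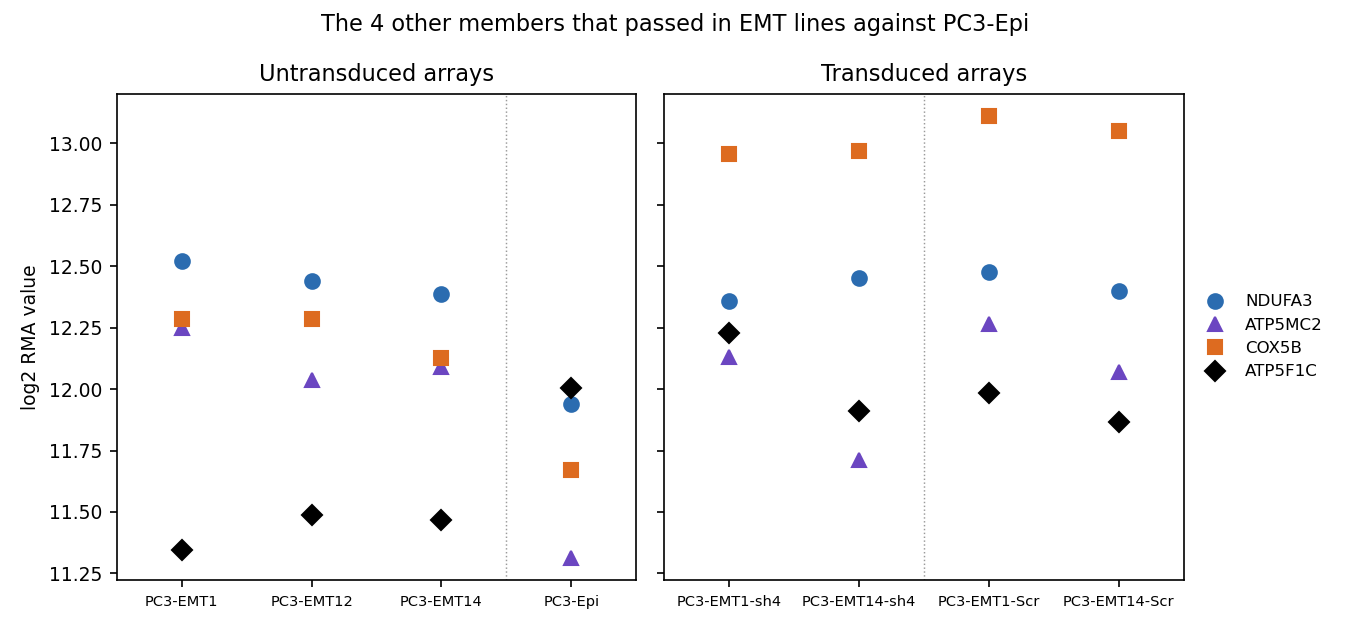
Log2 RMA values on the y axis of the 4 genes other than COXFA4L3 that passed the test in the EMT lines against PC3-Epi, in each array on the x axis; each symbol is 1 array, the dotted line parts the groups and the panels were scaled apart. In the left panel ATP5MC2, COX5B and NDUFA3 lie higher in the 3 EMT lines than in PC3-Epi and ATP5F1C lies lower (11.34 to 11.49 against 12.003), while no gene in the right panel passed the test of sh4 against Scr.

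Within complex I, 1 of 32 genes rose (3.12%) and 31 did not pass, against 13.9% higher and 15.4% lower over all genes tested. The median difference was 0.09, against 0.07 over all genes tested. NDUFA5, an accessory subunit of the peripheral arm, stood at 8.60, 9.10 and 9.04 in the EMT lines, against 9.62 in PC3-Epi (-0.70 ± 0.23, adjusted p = 0.0651). NDUFS1, the large core subunit that carries iron-sulfur clusters, stood at 9.35, 9.81 and 9.22, against 10.04 in PC3-Epi (-0.58 ± 0.25, adjusted p = 0.124), and its 4 other probe sets differed by -0.46, -0.52, -0.39 and -0.12. Upwards, the membrane arm subunits NDUFB11 and NDUFA13 stood at 0.47 (adjusted p = 0.0642) and 0.42 (adjusted p = 0.0684), and the peripheral arm subunit NDUFA2 at 0.41 (adjusted p = 0.0883). The core subunits NDUFV1, NDUFV2, NDUFS3 and NDUFS7 stood at 0.12, 0.17, 0.23 and 0.29, with no p under the threshold.

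Of the 6 genes of complex III, none passed, against 29.3% of all genes tested. The median was -0.01, against 0.07 over all genes tested. In the limma fit 2 had an unadjusted p under 0.05, against 5325 of 11921 over all genes tested. UQCRB, a small subunit near the ubiquinone site, stood at 11.87, 11.99 and 11.78 in the EMT lines, against 12.32 in PC3-Epi (-0.44 ± 0.15, adjusted p = 0.0795), and UQCR11, another small subunit, at 11.68, 11.55 and 11.63, against 11.25 (0.37 ± 0.14, adjusted p = 0.0974). The 2 large core subunits UQCRC1 and UQCRC2 stood at -0.06 and -0.15.

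In complex IV, 15 of 20 genes were tested, of which COX5B rose, COXFA4L3 fell and 13 did not pass. That is 6.67% in each direction, against 13.9% higher and 15.4% lower over all genes tested. The median was 0.14, against 0.07 over all genes tested. Of the tissue forms and their counterparts that were tested, none passed: COX6B1 stood at 0.36 (adjusted p = 0.114), COX7A2 at 0.23 (adjusted p = 0.248), COX7A2L, which is known for its part in joining complexes III and IV, at 0.15 (adjusted p = 0.44), COX7B at -0.14 (adjusted p = 0.491) and COX4I2 at 0.37 (adjusted p = 0.0964). Under the filter, COX6A2 stood at 4.00, 4.19 and 3.93 in the EMT lines, against 3.41 in PC3-Epi, all under the brightest bacterial control, and it was called higher when no filter was set. In complex V, 1 gene rose, 1 fell and 14 of 16 did not pass, which is 6.25% called in each direction, with a median of 0.00. The catalytic subunits ATP5F1A and ATP5F1B stood at -0.01 and 0.06, and the inhibitor ATP5IF1, which blocks the enzyme from running backwards, at 0.11 (adjusted p = 0.612), with -0.06 and -0.26 for its other probe sets.

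**Figure D4:**
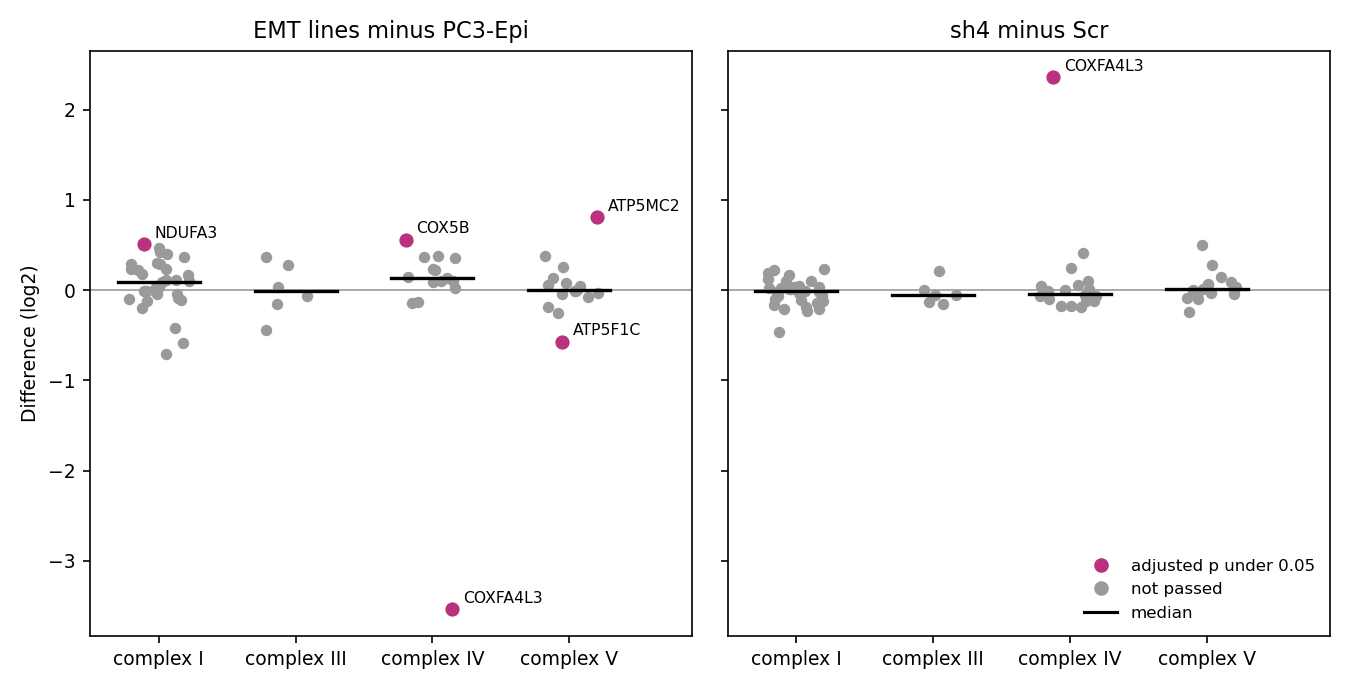
Log2 differences on the y axis of the tested genes of complexes I, III, IV and V on the x axis, for the EMT lines minus PC3-Epi (left) and sh4 minus Scr (right); each point is a gene, coloured points passed an adjusted p under 0.05 in limma, and bars are medians. Apart from COXFA4L3 at -3.53 and 2.36, the points lie between -0.70 and 0.81 on the left and between -0.46 and 0.50 on the right.

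With sh4, COXFA4L3 was the only member of 75 tested that passed in limma, against 1.18% of 16661 genes, 0.69% higher and 0.486% lower. It was also the only member to meet the 2-fold rule in both lines, which 0.276% of all genes met upwards and 0.132% downwards. No member was called lower. An unadjusted p under 0.05 was found for 4 members, COXFA4L3, ATP5MF, COX6B2 and NDUFA5, and for 3104 of the 16661 genes. The median difference was -0.01 over the members and 0.02 over all genes tested, and 73 of the 75 differed by less than 0.5.

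The next largest differences did not pass. ATP5MF stood at 6.41 and 6.60 with sh4 in PC3-EMT1 and PC3-EMT14, against 6.01 and 6.00 with Scr (0.50 ± 0.12, adjusted p = 0.0992), and the Scr values lay at the level of the brightest bacterial control. NDUFA5 stood at 9.98 and 10.47 with sh4, against 10.57 and 10.79 with Scr (-0.46 ± 0.12, adjusted p = 0.126), so it was lower in both lines. COX6B2, the testis form of subunit VIb, stood at 6.82 and 6.95 with sh4, against 6.66 and 6.28 with Scr (0.41 ± 0.15, adjusted p = 0.199).

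The 4 other genes that passed in the EMT lines did not pass with sh4. ATP5MC2 stood at 12.13 and 11.71 with sh4, against 12.27 and 12.07 with Scr (-0.25, adjusted p = 0.334). COX5B stood at -0.12 (adjusted p = 0.629), NDUFA3 at -0.03 (adjusted p = 0.922) and ATP5F1C at 0.14 (adjusted p = 0.62). The signs of the last 3 depend on the setting: COX5B stood at 0.05 as the mean of its probe sets, and without the sh4 array of PC3-EMT1, NDUFA3 stood at 0.07 and ATP5F1C at -0.01. By complex, the medians were -0.01, -0.06, -0.05 and 0.01 for complexes I, III, IV and V, against 0.02 over all genes tested.

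No member passed between the lines themselves. Over the 3 pairs of PC3-EMT14 and PC3-EMT1 arrays, limma called none of 75 members, against 1.82% of 16662 genes, 1.52% higher and 0.3% lower in PC3-EMT14. An unadjusted p under 0.05 was found for 4 members, against 2717 of the 16662 genes. With a trend in the prior variance it was found for 6 members, and none was called. Averaged over the 3 pairs, every tested member differed by less than 0.5. In single pairs COXFA4L3 differed by -0.79 in untransduced cells, 0.37 with sh4 and -0.09 with Scr, so its signs were mixed. The largest mean difference was that of NDUFA5 (0.38, adjusted p = 0.113 in limma). NDUFA5 stood at 9.04, 10.47 and 10.79 in PC3-EMT14, against 8.60, 9.98 and 10.57 in PC3-EMT1, in untransduced, sh4 and Scr cells. NDUFV1, a core subunit that binds NADH, stood at 0.31 (adjusted p = 0.17), ATP5MG, a membrane subunit of the ATP synthase, at 0.26 and ATP5MC2 at -0.26.

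Among the EMT lines, 3 coding genes spanned 0.5 or more: COXFA4L3 (1.57), COX7B2 (0.79, under the bacterial controls) and NDUFS1 (0.59), against a median span of 0.16. PC3-EMT12, with 1 array and no test, stood apart from the mean of PC3-EMT1 and PC3-EMT14 by -1.17 for COXFA4L3, 0.52 for NDUFS1 and 0.46 for NDUFB3, an accessory subunit of the complex I membrane arm. Members with several bright probe sets mostly gave 1 direction: of 23 members with more than 1 probe set at log2 7 or above, 18 had all of them on the same side of 0 in the EMT lines against PC3-Epi. Of the 76 chosen probe sets, 36 carry the suffix for probes that match several transcripts of a gene or gene family and 5 the suffix for probes that can match other sequences, so levels of close paralogues and of processed copies may be mixed.

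The promoters of the 5 genes that passed in the EMT lines are shown because they are where the members with a difference can be compared in sequence, as the 250 bases before the transcript start in RefSeq (GRCh38.p14), 5′ to 3′ on the strand of the gene. Capitals mark matches, on either strand, to 5 motifs chosen after the values were seen: the NRF1 motif TGCGCANGC, the ETS site CCGGAAG and the YY1 site AAGATGGCG, which are known from promoters of mitochondrial genes, and the E-box motifs CACCTG and CAGGTA, of the type that ZEB1 is known to bind. CAGGTA and the reverse complement of CACCTG share all but the last letter, and the other motifs do not overlap. COXFA4L3 is shown at chr15:45430360-45430609 (plus strand), ATP5MC2 at chr12:53676084-53676333 (minus strand), COX5B at chr2:97645812-97646061 (plus strand), NDUFA3 at chr19:54102605-54102854 (plus strand) and ATP5F1C at chr10:7787927-7788176 (plus strand).
COXFA4L3: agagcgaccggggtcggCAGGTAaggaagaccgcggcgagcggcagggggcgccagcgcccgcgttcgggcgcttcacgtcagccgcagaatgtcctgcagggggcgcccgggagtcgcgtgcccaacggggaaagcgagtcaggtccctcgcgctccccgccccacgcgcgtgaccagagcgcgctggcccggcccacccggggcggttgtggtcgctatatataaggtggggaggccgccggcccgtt
ATP5MC2: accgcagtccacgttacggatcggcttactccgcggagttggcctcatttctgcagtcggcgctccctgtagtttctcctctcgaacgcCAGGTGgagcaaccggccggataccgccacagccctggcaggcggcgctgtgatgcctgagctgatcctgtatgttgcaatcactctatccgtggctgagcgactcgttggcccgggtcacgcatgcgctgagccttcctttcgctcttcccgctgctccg
COX5B: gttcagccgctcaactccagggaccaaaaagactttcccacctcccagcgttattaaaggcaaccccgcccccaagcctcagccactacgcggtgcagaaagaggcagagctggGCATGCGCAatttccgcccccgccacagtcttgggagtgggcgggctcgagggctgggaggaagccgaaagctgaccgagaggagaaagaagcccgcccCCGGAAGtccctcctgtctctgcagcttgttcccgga
NDUFA3: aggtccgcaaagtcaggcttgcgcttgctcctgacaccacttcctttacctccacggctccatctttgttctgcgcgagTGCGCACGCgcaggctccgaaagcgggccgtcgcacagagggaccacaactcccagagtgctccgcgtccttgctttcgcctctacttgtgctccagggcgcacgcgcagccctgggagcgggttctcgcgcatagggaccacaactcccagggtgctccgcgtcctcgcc
ATP5F1C: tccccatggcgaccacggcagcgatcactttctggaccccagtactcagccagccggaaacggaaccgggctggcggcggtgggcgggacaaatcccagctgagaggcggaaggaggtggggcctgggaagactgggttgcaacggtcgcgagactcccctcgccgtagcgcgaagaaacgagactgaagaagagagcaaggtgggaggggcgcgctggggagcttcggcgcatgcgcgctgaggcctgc

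The COXFA4L3 window held CAGGTA and none of the 3 motifs of mitochondrial genes, ATP5MC2 held CACCTG on its other strand, COX5B held the NRF1 motif and the ETS site, NDUFA3 held the NRF1 motif, and the ATP5F1C window held no match. The ATP5MC2 window lies inside the annotated span of the gene, chr12:53665170-53681423, before the start that the promoter table uses. Promoters were found for 66 of the 76 coding genes. Of these, 16.7% held the NRF1 motif, against 3.95% of all 27305 promoters, and 21.2% held the ETS site, against 8.82%. The YY1 site was found in 1.52% against 0.641%, CACCTG in 15.2% against 17.5% and CAGGTA in 16.7% against 7.78%. The median GC content was 60.8% in the members and 58.0% in all promoters. These are matches of letters and not sites, and the windows shown are those of the genes that passed.

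The difference between the EMT lines and PC3-Epi varied with the length of the gene. Spearman's correlation across the 70 tested members was -0.372, with longer genes lower, and -0.417 without COXFA4L3, and it was -0.235 across 11913 genes. Genes are not independent replicates, all share the same 4 arrays, and the value is a description. With sh4 the correlation was -0.059 across 75 members and -0.084 across 16632 genes. With the GC content of the promoter, it was 0.114 across 62 members and 0.045 across 9742 genes in the EMT lines. With sh4 it was 0.383 across 65 members and -0.023 across the 13130 genes with a promoter in the table. Only 81.7% of all genes tested in the EMT lines and 78.8% with sh4 had one, which limits both comparisons with all genes.

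The 3 non-coding RNAs that share a subunit's name were dim. NDUFB2-AS1 and NDUFV1-DT stood at -0.12 (adjusted p = 0.666) and 0.25 (adjusted p = 0.298) in the EMT lines against PC3-Epi, NDUFV2-AS1 stayed under log2 5 there, and with sh4 they stood at -0.17, 0.12 and -0.06, none of which passed.

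The rest of the pathway was described from gene lists chosen with earlier results of these data known. Of the 13 subunits encoded by mitochondrial DNA, 7 had a probe set. In the EMT lines against PC3-Epi none of these passed in limma, against 29.3% of all genes tested. None had an unadjusted p under 0.05, and the median was 0.00. In that genome COX1 and COX2, catalytic subunits of complex IV, ND2 and ND4 of complex I and ATP6 of complex V were at log2 13 or above on all 8 arrays, and their differences lay between -0.10 and 0.09. With sh4 their list had a median of -0.20 against 0.02 over all genes tested, none passed, and 1 had an unadjusted p under 0.05 (ATP6, -0.32, adjusted p = 0.2).

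Among the 8 genes of complex II and the electron carriers, SDHA, the flavoprotein of complex II, stood at 10.19, 10.24 and 10.37 in the EMT lines, against 9.73 in PC3-Epi (0.54 ± 0.15, adjusted p = 0.0425), and 7 did not pass. That is 12.5% called higher, against 13.9% over all genes tested. SDHD, a membrane anchor of complex II, stood at -0.71 (adjusted p = 0.089) and SDHC, the other anchor, at 0.43 (adjusted p = 0.071). Of 57 assembly factors tested, 5 rose and 5 fell, with a median of 0.14, which is 8.77% in each direction, against 13.9% and 15.4% over all genes tested. NUBPL, which delivers iron-sulfur clusters to complex I, fell by 1.14 ± 0.14 (adjusted p = 0.00535), TMEM126B, a complex I assembly factor, fell by 1.03 (adjusted p = 0.0382), and LRPPRC, which stabilises mitochondrial transcripts, fell by 1.02 (adjusted p = 0.0152), whereas the complex III factor UQCC1 rose by 0.75 (adjusted p = 0.0357) and the complex I factor NDUFAF1 by 0.75 (adjusted p = 0.0166).

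SDHAF3, an assembly factor of complex II, differed between the lines. It stood at 5.42, 6.95 and 6.85 in PC3-EMT14, against 2.52, 4.24 and 3.28 in PC3-EMT1, in untransduced, sh4 and Scr cells. PC3-EMT14 was higher in all 3 pairs (limma, adjusted p = 0.0023). The PC3-EMT1 values lay under the brightest bacterial control of their set, so no size is given for the difference. In PC3-EMT12 it stood at 5.85 and in PC3-Epi at 6.71, and the EMT lines against PC3-Epi did not pass (adjusted p = 0.229). Between PC3-EMT14 and PC3-EMT1 it was the only assembly factor of 58 called, or 1.72%, against 1.82% over all genes tested.

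Of 16 regulators of mitochondrial biogenesis tested, 1 rose (6.25%) and 3 fell (18.8%) in the EMT lines, against 13.9% and 15.4% over all genes tested, with a median of -0.08. GABPA and GABPB1, the ETS-type activator NRF2 of mitochondrial genes, fell by 0.92 (adjusted p = 0.0375) and 0.78 (adjusted p = 0.0165), TFAM, the packaging and transcription factor of mitochondrial DNA, fell by 0.64 (adjusted p = 0.0214), and TWNK, the helicase of mitochondrial DNA, rose by 0.59 (adjusted p = 0.0389). Of 20 genes of the TCA cycle and pyruvate entry, 1 rose (5%) and 5 fell (25%), with a median of -0.07, and the share called in either direction was close to the 29.3% over all genes tested. SUCLG2, a subunit of succinyl-CoA ligase, stood at 7.48, 7.82 and 7.79 in the EMT lines, against 8.75 in PC3-Epi (-1.05 ± 0.18, adjusted p = 0.0132). DLAT and DLD, subunits of the pyruvate dehydrogenase complex, fell by 0.93 (adjusted p = 0.0209) and 0.84 (adjusted p = 0.0329), SUCLA2 and IDH3A also fell, and PC, pyruvate carboxylase, rose by 0.70 (adjusted p = 0.0258).

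The mitochondrial ribosome had 4 of 75 genes higher (5.33%) and 5 lower (6.67%), against 13.9% and 15.4% over all genes tested. MRPS6 stood at 1.21 (limma, adjusted p = 0.0061) and MRPL15 at -1.01 (adjusted p = 0.00772). The cytosolic ribosome had 1 of 56 genes called (1.79%), RPL22L1, which fell by 0.55 (adjusted p = 0.0347). The medians of these lists were 0.10 and 0.04, against 0.07 over all genes tested. With sh4, limma called no gene of any of these 7 lists, with 5 of 58 assembly factors, 3 of 18 biogenesis regulators and 7 of 75 mitochondrial ribosome genes at an unadjusted p under 0.05, against 3104 of 16661 over all genes tested, a share that none of these 3 lists exceeded. The values nearest to the threshold among the genes named were those of MYC, a regulator of growth and biogenesis (0.61, adjusted p = 0.0664) and ESRRG, a nuclear receptor of energy metabolism (-0.82, adjusted p = 0.113). PC3-EMT14 against PC3-EMT1 had 1 call among the 75 mitochondrial ribosome genes, MRPS18A (-0.53, limma, adjusted p = 0.0406). That is 1.33%, against 1.82% of all genes called in either direction and 0.3% called lower.

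**Figure D5:**
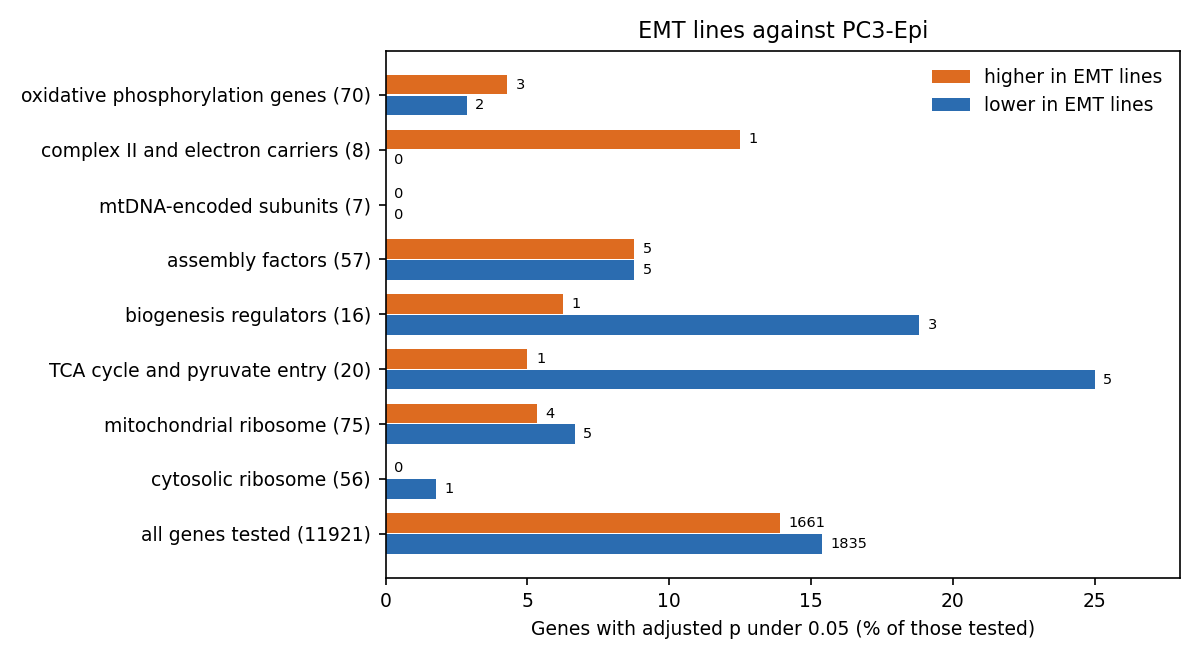
Share of genes with an adjusted p under 0.05 in limma in the EMT lines against PC3-Epi, in percent of the genes tested on the x axis, for each gene list on the y axis with the number tested in brackets, where bars start at 0, orange bars are genes higher and blue bars genes lower in the EMT lines, with the count at the end. The oxidative phosphorylation genes have 4.29% higher and 2.86% lower, against 13.9% and 15.4% over all genes tested.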

How the data were processed

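The authors hybridised RNA of 8 cell samples to Affymetrix arrays and deposited log2 values made with RMA in the affy package, whose versions are not given in the sources used here. These deposited log2 values were used without change. Of 54675 probe sets, 41091 carry 1 gene symbol and gave 19775 genes; for each, the probe set brightest on average was taken, and names were matched by Entrez number for 41037 of these probe sets. A gene was tested if it reached log2 5 on an array of the comparison. Tests were made with limma 3.58.1 (lmFit, eBayes) in R 4.3.3, and p-values were adjusted after Benjamini and Hochberg over every gene tested, with a threshold of 0.05. The EMT lines and PC3-Epi were fitted by group on 4 arrays (2 residual and 3.87 prior degrees of freedom), which takes the spread of the EMT lines as that of the unreplicated PC3-Epi array. For sh4 against Scr and PC3-EMT14 against PC3-EMT1, the 6 arrays of these lines were fitted by group and line (2 residual and 5.38 prior degrees of freedom), which pools the spread of both sets of arrays. Replicate numbers in the labels name the cell line and so pair the arrays; the deviations of sh4 and Scr arrays of a line correlated with r = 0.48 across 16661 genes.

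Genes counted as named were the COXFA4 family and genes with tissue forms, the members that passed in a comparison or differed 2-fold in a line, the 3 brightest and 3 dimmest members, the 3 largest differences of each pathway list, and the label checks; other genes named were chosen after their values were seen. The members and lists were chosen with earlier results of these data known. Alternatives comprised no filter or a filter at log2 7, probe sets averaged per gene, median centring, quantile normalisation, cyclic loess, 32 added on the linear scale, a trend in eBayes, no line block, the 4 transduced arrays alone, and leaving out each array or pair. Promoter and microRNA sequences are from RefSeq tables of GRCh38.p14. Tables and plots were made with Python 3.11.15 and pandas 2.3.3. A few genes of the pathway were not analysed here.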

Additional observations from a re-analysis of the deposited data

Results flagged for a closer look

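The effect of sh4 on COX8C was -0.13 in PC3-EMT14 and 0.13 in PC3-EMT1, opposite directions that differ by -0.26 (PC3-EMT14 minus PC3-EMT1). The difference was not tested, and the values of 5.12 to 5.37 lie under the brightest bacterial control. COX7B2 differed from PC3-Epi by 0.60 in PC3-EMT12 and by -0.19 in PC3-EMT1, a spread of 0.79 over the EMT lines that was not tested and lies under the bacterial controls on the untransduced arrays. COX8A differed from PC3-Epi by 0.12 in PC3-EMT14 and by -0.10 in PC3-EMT1, a spread of 0.22 that was not tested, at levels of 11.85 to 12.07.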

How the results depend on the processing

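In the EMT lines against PC3-Epi, the count of members higher was 3 and became 6 with the mean of probe sets, 1 with cyclic loess, 5 with 32 added and 11 with a trend. The count lower was 2 and became 3 with the mean of probe sets and 4 with a trend. In all, 9 of 70, 3 of 74, 7 of 76 and 15 of 70 members were called under these settings. The shares of all genes tested were 30.3%, 25%, 12.7% and 32.5% in that order, against 29.3% before. Leaving out 1 EMT line gave 1 to 4 members higher and 1 to 5 lower. In all, 2 members were called without PC3-EMT1, 9 without PC3-EMT12 and 2 without PC3-EMT14. The shares of all genes tested were 25.6%, 37.2% and 15.5% in that order. COXFA4L3 was lower under all 11 alternatives, with differences of -3.92 to -3.12 and adjusted p values of 0.0011 to 0.0454 in limma. The members' median was 0.0323 with quantile normalisation, 0.0118 with cyclic loess and 0.0561 to 0.0821 when 1 line was left out. With sh4 against Scr, the count higher was 1 and became 0 with 32 added, with no replicate block and with the 4 transduced arrays alone, where 4, 12 and 0 genes were called in all, and the median was 0.0112 with quantile normalisation. Signs turned for COX5B (0.0476, mean of probe sets), NDUFA3 (-0.1316 to 0.0687 when 1 array was left out) and ATP5F1C (-0.014 to 0.303), none of them called. For PC3-EMT14 against PC3-EMT1, the counts stayed at 0 under 12 alternatives, of which 3 called no gene at all, and the median was -0.005 with the mean of probe sets and -0.0623 with median centring. The causes were not tested. Members near the bacterial controls, the lone PC3-Epi array and the few arrays limit what can be seen.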
